A study of Mus musculus with 12 samples.

Results

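Checkpoint genes encode the surface proteins that restrain or permit T-cell activation, and 10 of them were followed here: the ligand genes Cd274 (PD-L1), Pdcd1lg2 (PD-L2), Cd80 and Cd86, and the receptor genes Pdcd1 (PD-1), Ctla4, Lag3, Havcr2 (TIM-3), Icos and Btla. They were found by gene name among the 34844 gene names of the array files, and all 10 were present, on 14 probes. Probes had to be flagged by the scanner software as well above background on every array of at least 1 group. This left 12 probes and 9 of the 10 genes among the 26503 genes tested, with Btla left out of the tests. The list was chosen by its levels in survivin-deleted against wild-type tumours, which had already been seen in these data, so for that comparison the members' values are given as a description, with no p-value.

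PD-L1 and PD-L2 bind the receptor PD-1 on activated T cells and dampen signalling from the T-cell receptor. CD80 and CD86, on antigen-presenting cells, serve both the activating receptor CD28 and the inhibitory receptor CTLA-4. In liver, PD-L1 is made by sinusoidal endothelium, Kupffer cells and other myeloid cells, by hepatocytes exposed to interferon-gamma, and by tumour cells, and its gene is a well-known target of the interferon-gamma, JAK-STAT and IRF1 pathway. The receptors are made mainly by T cells and other lymphocytes, and TIM-3 also by myeloid cells.

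The samples were RNA from livers and liver tumours (hepatocellular carcinoma, HCC) of mice of the 129/SV/B6 strain, labelled male. All had received the carcinogen N-nitrosodiethylamine at 50 mg/kg body weight when 2 weeks old, and were killed about 8 months later, 1 week after poly(IC), an inducer of interferon. Irradiation with bone marrow transplantation had taken place in all of them 2 months earlier, with marrow from donors whose genotype the sources used here do not give. The 4 groups of 3 arrays were non-cancerous liver without the Mx-Cre transgene, liver with it, HCC without it and HCC with it (Mxcre- and Mxcre+), and the series' design gives them as survivin wild type and survivin deleted. Mx-Cre is switched on by interferon in hepatocytes and also in blood-forming and other cells, so the deletion need not be limited to the tumour cells. Whether cells from the donor marrow carried the deletion cannot be told, since the donors' genotype is not given. Nothing in the labels says that replicate arrays are separate animals, so the p-values measure the spread between these samples, which may be technical.

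Levels below are log2 signals relative to the 75th percentile of the array, so 0 is the level of a fairly bright probe, and 1 unit is a doubling. Replicate 1 of every group lay on slide 1 and replicates 2 and 3 on slide 2, and the 75th percentile signal was 1283 to 1958 on slide 1 and 3639 to 4243 on slide 2. Wild-type liver replicate 1 had 49.0% of its spots well above background, against 69.2% to 83.4% elsewhere. Replicate 1 of survivin-deleted liver and replicate 1 of wild-type HCC are arrays in doubt. In the authors' deposited value table the columns of these 2 arrays each match the other's scanner file (r = 1.00 over probes, against 0.970 with its own file). Birc5, the gene of survivin, read 2.42 on the first of them, where the other survivin-deleted arrays read -1.07 to 0.17. It read 0.80 on the second, where the wild-type HCC arrays of slide 2 read 0.82 and 1.76. Both arrays in doubt lie on slide 1, whose survivin-deleted tumour read 0.06 by the same probe and whose wild-type liver read 2.85. By every Birc5 probe the first array lay nearer that wild-type liver, and the second nearer that survivin-deleted tumour. Which assignment is right was not tested. The other 2 Birc5 probes read -2.03 and -0.57 on that second array, against -0.85 and 0.09, and 0.57 and 1.41, on the same slide 2 arrays. XIST, which is transcribed from the inactive X chromosome, read -2.32 on the first and -4.12 on the second. On the other 10 arrays it was -2.13 to -1.31 in the wild-type groups and -6.33 to -4.89 in the survivin-deleted groups. XIST thus differed with genotype although all mice are labelled male. With the 2 arrays exchanged, its means were -1.65 and -2.11 in wild-type liver and HCC, and -5.39 and -5.80 in survivin-deleted liver and HCC. Sex, or whatever else goes with XIST, therefore cannot be told apart from survivin deletion in the deletion comparisons, and its part was not tested. Because of the 2 arrays in doubt, results are given as labelled and, where it matters, with these 2 arrays exchanged. Hepatocyte genes averaged 5.09 to 5.61 on every array, and the T-cell marker Cd3e was above background on all 12.

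Cd274 and Pdcd1lg2 lie next to each other on mouse chromosome 19, and the sequences around their starts are shown because these were neighbouring ligand genes whose levels were both higher in all survivin-deleted tumours than in all wild-type tumours as labelled. RefSeq promoter sequence (build GRCm38.p6, 250 bases before to 50 bases after the gene's start, plus strand) was available for 7 of the 10 members, Cd274, Pdcd1lg2, Cd80, Pdcd1, Ctla4, Havcr2 and Btla. Capitals mark the letters GAAAC, a core bound by interferon regulatory factors, or its reverse complement GTTTC.

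Cd274, chr19:29367188-29367487: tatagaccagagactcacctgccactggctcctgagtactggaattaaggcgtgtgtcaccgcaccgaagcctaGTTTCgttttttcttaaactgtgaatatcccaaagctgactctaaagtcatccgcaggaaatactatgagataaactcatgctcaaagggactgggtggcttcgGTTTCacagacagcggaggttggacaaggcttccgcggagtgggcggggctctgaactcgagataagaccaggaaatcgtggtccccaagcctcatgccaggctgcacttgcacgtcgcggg

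Pdcd1lg2, chr19:29410669-29410968: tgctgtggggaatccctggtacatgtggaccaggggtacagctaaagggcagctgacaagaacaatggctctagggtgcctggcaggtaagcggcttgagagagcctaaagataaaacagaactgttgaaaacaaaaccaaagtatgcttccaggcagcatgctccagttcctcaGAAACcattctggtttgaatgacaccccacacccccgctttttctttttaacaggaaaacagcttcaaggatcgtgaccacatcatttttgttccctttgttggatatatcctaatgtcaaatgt

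The core occurred at -176 and -72 from the start of Cd274, both on the minus strand, and at -75 in Pdcd1lg2, on the plus strand. It is a common string: 45.0% of 32851 promoters of this length held it on either strand, and it was added to the search after the longer motifs had given no match in these promoters. Among the other 5 promoters it was found in Cd80, Pdcd1, Ctla4 and Btla and not in Havcr2. The longer interferon-type element, GAAA, any 2 bases and GAAA again, present in 3.44% of promoters, and the STAT-type element TTCNNNGAA, present in 8.3%, were in none of the 7 windows. The AP-1-type site TGANTCA, present in 7.81%, was found in Cd80 at -42 and in Havcr2 at -200, as TGATTCA in each. These matches describe letters in a window, not binding.

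Cd274 had the largest mean difference of the ligands with survivin deletion in HCC, the comparison that chose the members. Its single probe (mm9 chr19:29462363-29462422, for NM_021893) was above background on all 12 arrays. In wild-type liver its levels were -1.88, -1.73 and -2.42 on replicates 1 to 3, while survivin-deleted liver gave -0.79, -1.23 and -1.01. In wild-type HCC they were -2.86, -2.01 and -3.38, and in survivin-deleted HCC 0.45, 0.67 and -1.32. All 3 survivin-deleted tumours thus read above all 3 wild-type tumours, and all 3 survivin-deleted livers above all 3 wild-type livers. The third survivin-deleted tumour was more than 1 unit below the other two and lay below every survivin-deleted liver.

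**Figure D1:**
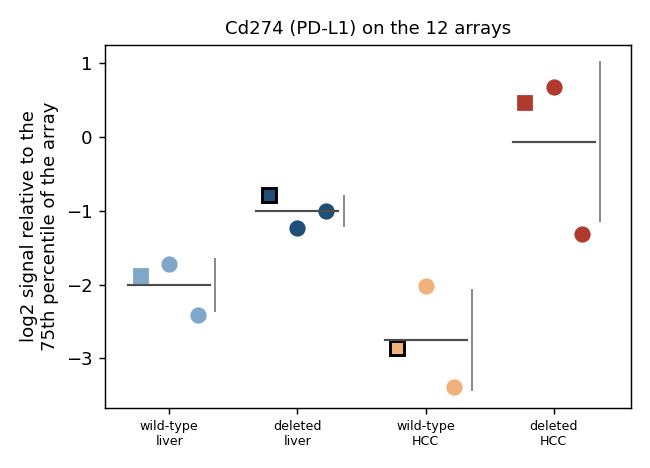
Cd274 level (log2 signal relative to the 75th percentile of the array) on each of the 12 arrays, by group. Squares are slide 1, circles slide 2, black outlines the 2 arrays in doubt, horizontal lines group means and vertical lines 1 SD. As labelled, the survivin-deleted tumours (-1.32 to 0.67) lie above the wild-type tumours (-3.38 to -2.01).

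Ordered by mean level, the groups were survivin-deleted HCC at -0.07 ± 1.09 (SD, n = 3), survivin-deleted liver at -1.01 ± 0.22, wild-type liver at -2.01 ± 0.36 and wild-type HCC at -2.75 ± 0.69. The first and the last neighbouring pairs in this order overlapped, and the middle pair did not. Survivin-deleted HCC exceeded wild-type HCC by 2.68 ± 0.52 (SE of the fit), a 6.43-fold difference. The difference was 3.31 on slide 1, from 1 array of each, and 2.37 on slide 2. Leaving out 1 array at a time gave 2.32 (without survivin-deleted HCC replicate 2) to 3.31 (without survivin-deleted HCC replicate 3). With the 2 arrays exchanged it was 1.99 ± 0.73 and the groups overlapped, and without both, with slide in the model, it was 2.47. The sign therefore held in each of these settings while the separation of the groups did not survive the exchange.

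In non-cancerous liver, a comparison that shares no array with the one that chose the genes, survivin deletion went with a Cd274 difference of 1.00 ± 0.52, or 2.00-fold. It did not pass the test across all genes (limma adjusted p = 1.00), and the exact permutation test gave p = 0.1, the smallest that 3 against 3 arrays allow. With the 2 arrays exchanged the difference was 0.31 ± 0.73 (exact permutation p = 0.6) and the livers overlapped, since the array then counted as survivin-deleted reads -2.86. That array is labelled wild-type HCC and belongs to the comparison that chose the genes. Without both arrays the difference was 1.05 (limma adjusted p = 0.759 with slide in the model). Adipocyte genes averaged 3.82 on survivin-deleted liver replicate 3 and -1.20 to -0.22 on the other arrays, and with any 1 array left out the Cd274 difference in liver was 0.79 to 1.14. The change with deletion was 1.68 ± 0.74 larger in HCC than in liver, as a description. The exchange cannot alter that value, because both arrays in doubt count with the same weight in it. Its SE was 1.04 after the exchange.

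Between tissues, the Cd274 level was lower in HCC than in liver by -0.74 ± 0.52 in the wild type (exact permutation p = 0.2) and higher by 0.94 ± 0.52 with survivin deleted (exact permutation p = 0.4), with overlapping groups in both. With the exchange these became -0.05 and 1.63, both with a limma adjusted p of 1.00, as without it. These tissue comparisons use the tumour arrays that chose the genes, here and for every member below, so nothing is read from their p-values.

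Pdcd1lg2, the second PD-1 ligand, was near the limit of detection. Its brighter probe (mm9 chr19:29545470-29545529) read -2.80, -5.09 and -5.70 in wild-type livers, -3.90, -5.27 and -5.36 in survivin-deleted livers, -4.82, -5.67 and -5.60 in wild-type HCC and -4.01, -2.93 and -4.58 in survivin-deleted HCC. It was above background on 8 of 12 arrays. Only survivin-deleted HCC had all 3 arrays above background, and the probe passed the filter through that group alone. Those 3 read above the wild-type tumours, by 1.52 ± 0.73 on average, although the brightest array of all was a wild-type liver whose spot was not well above background. A second probe starts 3 bases further on and shares 57 bases with the first apart from C53T and G58A (positions counted from 1 at the first probe's 5′ end), so the 2 probes are not independent. It gave 1.39 in the same comparison, also without overlap. On wild-type liver replicate 1, however, the probes read -2.80 and -5.19, and on survivin-deleted liver replicate 1 they read -3.90 and -2.86. In liver the deletion difference was -0.31 ± 0.73 by the first probe (exact permutation p = 0.8) and 0.72 by the second, so the probes disagreed in sign there. With the 2 arrays exchanged the HCC difference was 1.22 and the groups overlapped.

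Cd86, the CD28 and CTLA-4 ligand typical of myeloid cells, was above background on 11 of 12 arrays. It read -3.93, -4.13 and -4.40 in wild-type livers, -2.84, -3.70 and -4.42 in survivin-deleted livers, -2.85, -4.60 and -4.99 in wild-type HCC and -2.54, -2.13 and -3.80 in survivin-deleted HCC. Survivin-deleted tumours were higher by 1.32 ± 0.62, with overlap, since the first wild-type tumour array lay above the third survivin-deleted one. That array is 1 of the 2 in doubt, but both of them read alike for Cd86 (-2.84 and -2.85), and the exchange left the difference at 1.32. On slide 2 alone the tumours did not overlap and differed by 1.83.

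Cd80 could not be compared across slides. The brighter of its 2 probes (mm9 chr16:38486772-38486831) read -2.37 to -1.57 on the 4 arrays of slide 1 and -0.02 to 0.48 on the 8 of slide 2. The dimmer one (mm9 chr16:38479343-38479402) went the other way, reading -1.01, -0.66 and 0.12 on the slide 1 arrays other than wild-type liver replicate 1, and -3.69 to -2.64 on slide 2. Its sequence is shown because its readings part so clearly from those of the other probe for the same transcript, NM_009855.

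Cd80 dimmer probe, chr16:38479343-38479402: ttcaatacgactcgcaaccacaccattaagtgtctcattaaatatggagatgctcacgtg

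For the brighter probe, survivin deletion went with 0.17 ± 0.89 in HCC and 0.43 ± 0.89 in liver (exact permutation p = 0.5). With slide in the model the liver difference had an SE of 0.19 and a limma adjusted p of 0.421. The dimmer probe gave 2.16 for deletion in liver, with no overlap of the groups, and 1.78 after the exchange, again with none. The slide 1 pair differed by 5.46 and slide 2 by 0.52, and the slide 1 wild-type liver read -5.33, not well above background.

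Among the receptors, Pdcd1, the gene of PD-1 itself, had the widest spread. It read -1.51, -4.01 and -5.97 in wild-type livers, 0.22, -3.65 and -4.14 in survivin-deleted livers, -3.13, -3.62 and -5.75 in wild-type HCC and -2.57, -0.48 and -1.71 in survivin-deleted HCC. It was above background on 10 of 12 arrays, and not on wild-type HCC replicate 3 or wild-type liver replicate 3, whose levels are bounds. The 3 survivin-deleted tumours lay above the 3 wild-type tumours, by 2.58 ± 1.32, and the slide 1 pair differed by 0.56 where slide 2 differed by 3.59. The highest array of all was survivin-deleted liver replicate 1, which is in doubt. Placed with wild-type HCC it brought the difference to 1.47 ± 1.40, with overlap. The same exchange separated survivin-deleted HCC from survivin-deleted liver, with a difference of 2.05 (exact permutation p = 0.1) in place of 0.94 (exact permutation p = 0.6) as labelled.

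Lag3, an inhibitory receptor of activated and exhausted T cells that binds MHC class II and FGL1, was by the probe used for each gene the only tested member whose groups separated between wild-type tissues as labelled. It read -1.89, -1.50 and -2.59 in wild-type liver against -2.63, -3.80 and -4.25 in wild-type HCC, so the groups separated only narrowly, at -2.59 and -2.63. The difference was -1.57 ± 0.61 (limma adjusted p = 1.00, exact permutation p = 0.1), and -1.98 on slide 2 alone. With the 2 arrays exchanged it was -1.24 (exact permutation p = 0.3) and the groups overlapped. Survivin-deleted liver read -1.66, -1.96 and -2.17, close to wild-type liver, with a difference of 0.06 ± 0.61 (exact permutation p = 1). Survivin-deleted HCC spread from -3.37 on slide 1 to -0.87 and -2.20 on slide 2. It exceeded wild-type HCC by 1.41 ± 0.61, with overlap: the slide 1 pair differed by -0.74 and slide 2 by 2.49.

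Havcr2, the gene of the inhibitory receptor TIM-3, read -4.65, -3.88 and -5.20 in wild-type liver, with -4.37, -3.36 and -3.60 when survivin was deleted. It read -4.97, -2.34 and -4.51 in wild-type HCC and -3.47, -0.88 and -2.23 in survivin-deleted HCC. The survivin-deleted tumour was higher within each slide, by 1.87 on slide 2 and by 1.74 ± 0.76 in all, but replicate 2 of wild-type HCC lay within the range of the survivin-deleted tumours. Against survivin-deleted liver, survivin-deleted HCC was higher by 1.58 ± 0.76 (limma adjusted p = 1.00, and 0.904 with slide in the model, exact permutation p = 0.2). With the exchange this was 1.78 (exact permutation p = 0.2).

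Icos, a costimulatory receptor of activated and regulatory T cells, had 3 probes, of which 1 was not above background on any array. The brighter of the others read -1.29, -3.04 and -3.22 in wild-type livers, -1.07, -3.17 and -3.12 in survivin-deleted livers, -1.51, -3.85 and -4.48 in wild-type HCC and -1.75, -1.79 and -2.20 in survivin-deleted HCC. Within slide 2 the survivin-deleted tumours were 2.17 higher than the wild-type ones, and on slide 1 the pair differed by -0.25. In all 6 arrays the difference was 1.36 ± 0.82, and 1.19 by the other probe kept, with overlap in both. Ctla4, the inhibitory partner of CD28, was dim throughout, with levels of -4.94 to -3.22. Over all arrays its groups overlapped in each of the 4 comparisons, and deletion went with 0.26 ± 0.49 in HCC and 0.53 ± 0.49 in liver (exact permutation p = 0.5).

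Btla, the receptor of HVEM on B and T cells, was above background on 7 of 12 arrays and on none of slide 1. On slide 2 it read -3.73 and -4.69 in wild-type livers, -3.34 and -3.46 in survivin-deleted livers, -3.90 and -5.80 in wild-type HCC and -3.47 and -2.97 in survivin-deleted HCC. The survivin-deleted tumours of that slide were 1.63 higher than the wild-type tumours, of which replicate 3 was not above background. It was not tested.

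**Figure D2:**
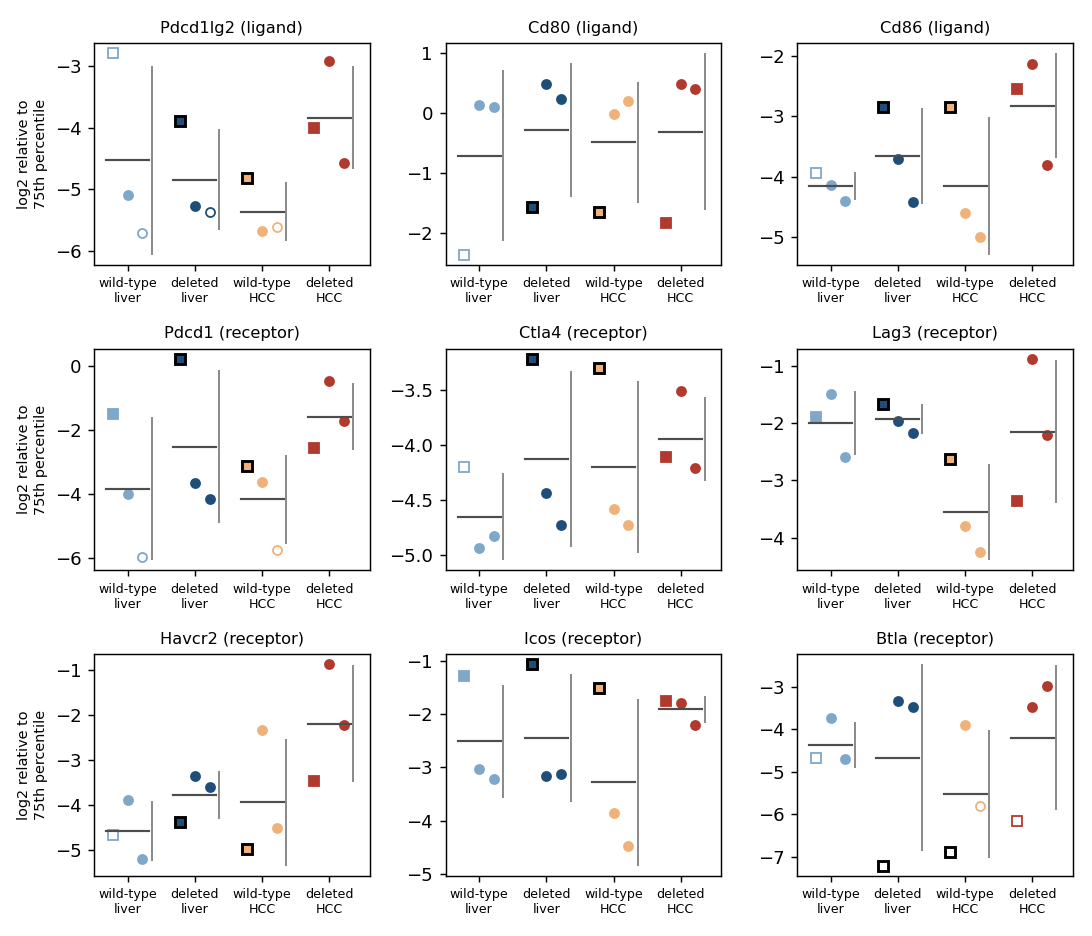
Levels of the other 9 members (log2 relative to the 75th percentile) by group, for the probe used for each gene. Squares are slide 1, circles slide 2, open symbols spots not well above background, black outlines the 2 arrays in doubt, horizontal lines group means and vertical lines 1 SD. Cd80 separates by slide (-2.37 to -1.57 against -0.02 to 0.48), and for Lag3 the wild-type tumours (-4.25 to -2.63) lie below the wild-type livers.

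Across the members, all 9 tested genes were higher in survivin-deleted than in wild-type HCC by their mean difference, with a median of 1.41 where the median over all 26503 genes was -0.02. Of the 9, Cd274, Pdcd1lg2 and Pdcd1 had groups that did not overlap, against 2.74% of all genes in that direction. This comparison chose the genes, and nothing is read from the count. After the exchange all 9 remained higher, with a median of 1.22, and none had separate groups (2.69% of all genes did so upwards). No gene of the 26503 had an adjusted p under 0.05 in limma in this comparison, and 1.14% were higher and 0.698% lower at an unadjusted p under 0.05.

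A single tumour stood high for every tested member. Survivin-deleted HCC replicate 2 was the highest of the 8 arrays of slide 2 for all 9 members, and the highest of all 12 arrays for 5 of them. Without it the HCC difference was 2.32 for Cd274, 1.07 for Pdcd1lg2, 0.98 for Cd86, 2.03 for Pdcd1, 0.78 for Lag3, 1.09 for Havcr2 and 1.30 for Icos. For Cd80 and Ctla4 it was then -0.22 and 0.04. Cd86, Pdcd1 and Icos were lower still without wild-type HCC replicate 3, the lowest tumour, at 0.90, 1.79 and 0.76. The same tumour also had the highest T-cell marker mean of slide 2, at -0.56, where the other arrays of that slide read -2.66 to -1.43. It had the highest dendritic cell mean of all arrays, at -1.17, with Itgax, the CD11c gene, at 1.43. Its mean of 12 macrophage genes, 1.28, was above the 0.76 and 0.95 of the wild-type tumours of its slide. That mean was below the 1.30 of survivin-deleted HCC replicate 3 and the 1.42 to 2.36 of the liver arrays. Against the same wild-type tumours, the macrophage gene Emr1 read 2.04 beside 1.13 and 0.99, and Clec4f 0.13 beside 0.27 and 1.38. In whole tissue a different share of these cell types and a different amount of RNA per cell cannot be told apart.

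In liver the deletion differences of the 9 members had a median of 0.50 against 0.05 over all genes, with 8 higher and 1 lower. By the probes used only Cd274 had separate groups, where 6.28% of all genes were separate in that direction. After the exchange the median was 0.31, with 6 of 9 higher. No member was then separate by these probes, where 6.08% of all genes were higher without overlap. Without a block no member was at an unadjusted p under 0.05 in limma in liver, where 2.43% of all genes were higher and 0.596% lower at that level. With slide in the model Cd80 was, where 8.37% of all genes were higher, and with replicate number in the model Cd274 was, where 7.51% were. In the comparison of wild-type tissues, 4 members were higher and 5 lower in HCC, with a median of -0.34 against 0.04. By the probes used Lag3 alone separated, against 2.36% of all genes that were lower without overlap. The second probe of Icos also separated lower there (-0.81) and the dimmer one of Cd80 higher (1.89). Lag3 was also the only member at an unadjusted p under 0.05, where 0.789% of genes were higher and 0.887% lower. It stayed at that level with slide (2.43% of genes lower) or replicate number (2.34%) in the model. After the exchange the median was 0.01, with 5 of 9 higher. No member was then separate by the probes used (3.41% of genes were lower without overlap), while the dimmer probe of Cd80 was separate and higher, at 2.27. With survivin deleted, 7 were higher and 2 lower in HCC than in liver, with a median of 0.83 against -0.04, and no member separated as labelled (2.23% of genes did so upwards). After the exchange Pdcd1lg2 and Pdcd1 did, against 3.03%. As labelled and without a block no member was at an unadjusted p under 0.05 there, where 0.34% of genes were higher and 0.513% lower. Havcr2 was higher at that level with slide in the model (1.75% of genes), and Havcr2 and Cd274 were with replicate number in it (1.63%) and after the exchange (0.909%). With both the exchange and slide, Havcr2 and Pdcd1lg2 were (2.91%). Pdcd1lg2 passed the probe filter only through survivin-deleted HCC, the group of its highest mean. Its separation and p-value here are therefore descriptions. Both tissue comparisons use tumour arrays that chose the members, and nothing is read from the member counts in them. No gene passed the adjusted threshold in limma in liver or in either tissue comparison (0 of 26503 in each).

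**Figure D3:**
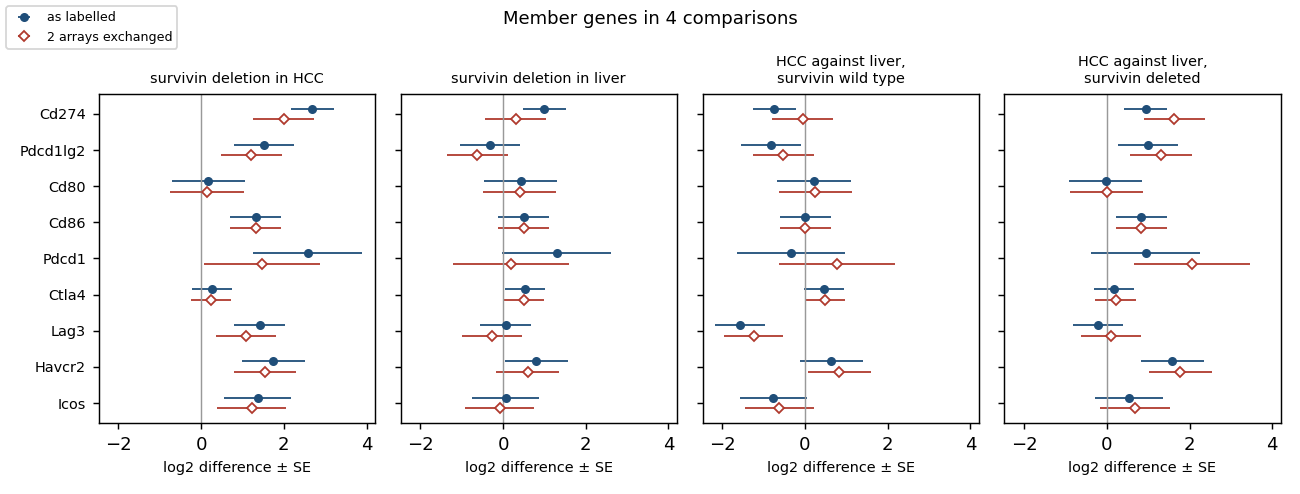
Log2 differences (points) and SE of the fit (bars) of the 9 tested members in the 4 comparisons, as labelled (filled circles) and with the 2 arrays in doubt exchanged (open diamonds). Deletion in HCC gives positive values for all 9 genes in both assignments, and Cd274 falls from 2.68 to 1.99 with the exchange.

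Ligands and receptors were set side by side by centring each gene on its mean over the arrays. The mean of the 4 ligand genes was -0.18, -0.14 and -0.54 in wild-type livers, 0.29, 0.13 and -0.08 in survivin-deleted livers, -0.48, -0.51 and -0.88 in wild-type HCC and 0.58, 1.58 and 0.24 in survivin-deleted HCC. The mean of the 5 receptor genes was 0.46, -0.31 and -1.20, then 1.14, -0.15 and -0.39, then 0.06, -0.47 and -1.58, then 0.11, 1.66 and 0.66, in the same order. In both sets the lowest array was wild-type HCC replicate 3 and the highest survivin-deleted HCC replicate 2. The highest wild-type and the lowest survivin-deleted tumour read -0.48 and 0.24 in the ligand mean, -0.18 and 0.14 in the ligand mean without Cd274, and 0.06 and 0.11 in the receptor mean. The first pair lay on different slides and the other two within slide 1, and Cd80 differed by slide. With the 2 arrays exchanged, wild-type HCC would hold the 0.29 and the 1.14, and neither mean would separate the tumours. Group means of ligands minus receptors ranged from -0.09 to 0.06, with an SD within groups of 0.45 to 0.67, but they pool slides that differed. On slide 1 survivin-deleted HCC read 0.47 and the other groups -0.86 to -0.54. On slide 2 survivin-deleted HCC read -0.08 and -0.42 and the other groups -0.04 to 0.69. It thus departed in opposite directions on the slides, and its group mean does not show which set it favoured. Without Cd274 the ligand mean was 0.60 ± 0.69 in survivin-deleted tumours and -0.40 ± 0.20 in wild-type tumours.

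**Figure D4:**
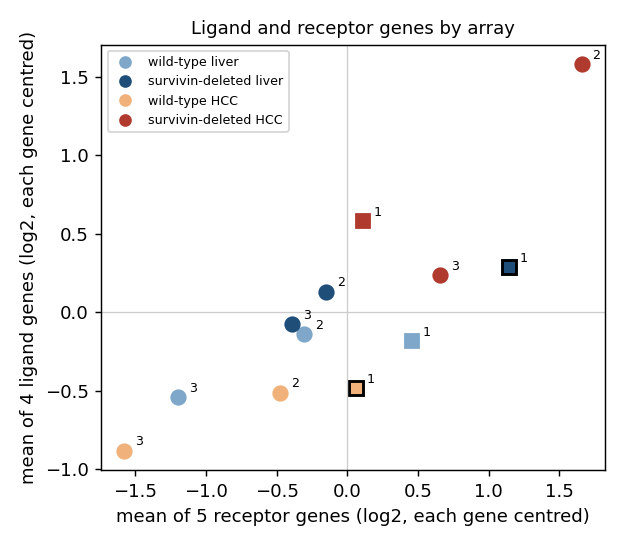
Mean of the 4 ligand genes against the mean of the 5 receptor genes on each array, each gene centred on its mean over the 12 arrays (log2). Colours are groups, numbers replicates, squares slide 1 and black outlines the 2 arrays in doubt. Survivin-deleted HCC replicate 2 lies highest on both axes (1.66 and 1.58) and wild-type HCC replicate 3 lowest (-1.58 and -0.88).

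Markers of T cells, the main source of the receptors, are set beside them. All 15 of the list were measured, and their mean was -2.43 to -1.21 in wild-type liver, -2.01 to -0.54 in survivin-deleted liver, -2.66 to -1.62 in wild-type HCC and -1.66 to -0.56 in survivin-deleted HCC. With deletion in HCC, 13 were higher and 2 lower, with a median of 0.81. At an unadjusted limma p under 0.05, Cd3d (1.75 ± 0.65) and Cd3g (1.74 ± 0.78), chains of the T-cell receptor's CD3 complex, were higher, and the kinase gene Zap70 was lower (-0.86 ± 0.38). Of all genes, 1.14% were higher and 0.698% lower at that level. These are the tumour arrays that chose the members, so such p-values are descriptions. Cd3e read 0.53 in survivin-deleted HCC replicate 2 and -1.70 and -0.58 in the other survivin-deleted tumours, against -1.99 to -1.49 in wild-type HCC. Of 12 regulatory and effector T-cell genes, 9 were higher and 3 lower, with a median of 0.89. The regulatory T-cell marker Foxp3 read -1.86, -3.02 and -3.55 in survivin-deleted tumours and -1.99, -3.88 and -3.35 in wild-type tumours. At an unadjusted limma p under 0.05, the interleukin-2 receptor gene Il2ra (1.25 ± 0.51) and Ikzf2, the gene of the transcription factor Helios (2.09 ± 0.87), were higher. None of these passed adjustment over all genes (limma adjusted p = 1.00), and the part of T-cell content in the receptor values was not tested.

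Of the wider checkpoint family, 16 of 21 further ligand genes and 12 of 17 further receptor genes were measured. In the survivin-deleted tumours 11 of the 16 ligands were higher, with a median of 0.18, and the only one at an unadjusted p under 0.05 was Nectin3, an adhesion molecule of the nectin family, which was lower (-0.73 ± 0.33). Of the 12 receptors 11 were higher, with a median of 0.59, and Cd200r1, an inhibitory receptor of myeloid cells (1.36 ± 0.44), and Lair1, a collagen-binding inhibitory receptor (0.98 ± 0.41), were at that level. Havcr1, a TIM family receptor, was the one lower (-0.63 ± 0.30), also with separate groups as labelled, like 709 of the 26503 genes in that direction. Cd200r1 and Lair1 had separate groups as labelled, where 2.74% of all genes were higher without overlap. With the exchange Cd200r1 and Lair1 were 0.96 ± 0.50 and 0.83 ± 0.43. As given above, 1.14% of all genes were higher and 0.698% lower at an unadjusted p under 0.05 in this comparison, which chose the members. In liver, without a block, none of the 16 ligands or 12 receptors was at an unadjusted p under 0.05, and the medians were -0.26 and 0.14. In the 2 tissue comparisons none was either.

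The interferon-gamma pathway that controls Cd274 in many cells was measured in 25 of 26 genes. With deletion in HCC 16 were higher and 9 lower, with a median of 0.20. Gbp2, an interferon-induced GTPase, was higher by 1.79 ± 0.72, the only one of the 25 at an unadjusted limma p under 0.05, and the T-cell attracting chemokine Cxcl10 by 1.29 ± 0.70. In this comparison, which chose the members, 1.14% of all genes were higher at that level. With slide in the model 4 of the 25 were higher at that level, where 3.44% of all genes were. With the exchange Gbp2 was 0.94 ± 0.70. Ifng itself, the cytokine, read -2.63, -0.74 and -3.91 in survivin-deleted tumours and -2.98, -5.16 and -6.84 in wild-type tumours, a difference of 2.56 ± 1.47, where the lowest of these spots was not well above background. The transcription factor Irf1 read 2.18, 1.85 and 1.36 against 2.59, 0.65 and 0.61, and Jak2, whose gene lies near Cd274, 1.16, 1.02 and 0.64 against 0.83, 0.54 and 0.43. Irf1 was at 2.18 to 3.11 on all of slide 1 and 0.61 to 1.85 on slide 2, so it too differed by slide. In liver 12 of the 25 were higher and 13 lower with deletion, with a median of -0.04. Without a block none of the 25 was at an unadjusted p under 0.05 in liver or in either tissue comparison.

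The genes around Cd274 are set beside it for position. Besides Pdcd1lg2, 20 gene names had a tested probe within 500 kb of the Cd274 probe on mm9. Their differences with deletion in HCC ran from -0.61 to 0.97, and in liver from -0.94 for the glutamate transporter gene Slc1a1 to 0.72 for the melanocyte gene Mlana, where Cd274 was at 1.00. With the exchange Slc1a1 was further from 0 in liver than the 0.31 of Cd274. Without a block none was at an unadjusted limma p under 0.05 in either, and none was beyond the 2.68 of Cd274 or the 1.52 of Pdcd1lg2 in HCC. The HCC comparison chose Cd274 and Pdcd1lg2 and not their neighbours, so nothing is read from that contrast. In liver Pdcd1lg2 was at -0.31.

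**Figure D5:**
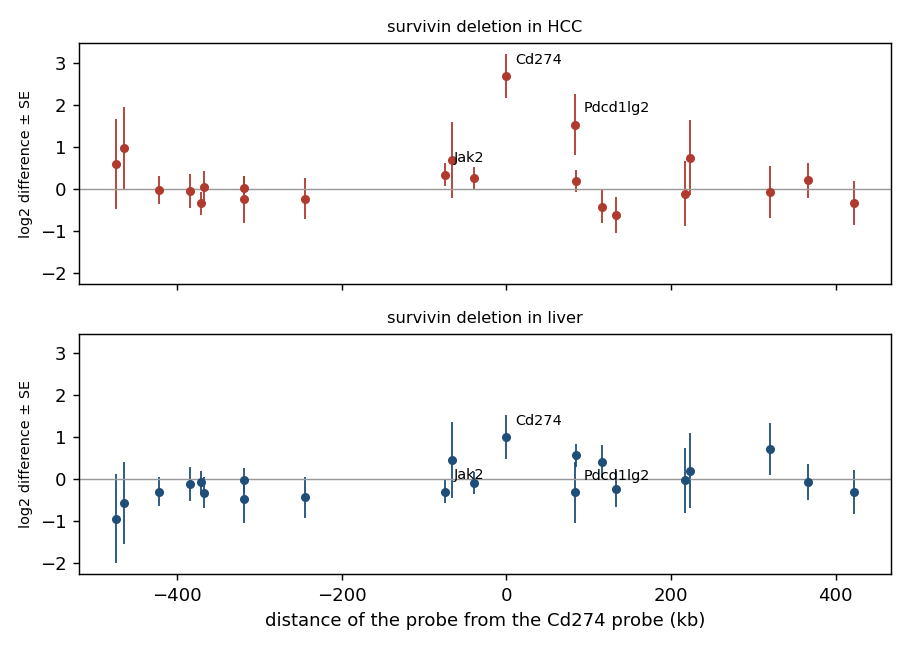
Log2 difference with survivin deletion in HCC (top) and in liver (bottom), with SE of the fit, for Cd274 and the tested genes within 500 kb, against the distance of each probe from the Cd274 probe in kb. In HCC, the comparison that chose these 2 members, the points other than Cd274 (2.68) and Pdcd1lg2 (1.52) lie between -0.61 and 0.97.

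The genes whose levels followed Cd274 most closely over the 12 arrays, among 14866 with a regular name, were Gbp3 (r = 0.944), P2ry6 (0.933), Cysltr1 (0.908), Ptpn22 (0.905) and Pcp4l1 (0.902). Gbp3 is an interferon-induced GTPase, P2ry6 a nucleotide receptor, Cysltr1 a leukotriene receptor, and Ptpn22 a phosphatase of lymphocytes. After slide means were subtracted, the first 5 were Gbp3 (0.943), Plekho1 (0.936), P2ry6 (0.936), Cysltr1 (0.922) and Ly86 (0.919), so 3 genes were in both sets. The 12 arrays include the tumour difference by which the members were chosen and share slides, so these are descriptions. Gbp3 was higher with deletion by 1.42 in HCC and 0.20 in liver, and Pcp4l1 by 2.77 and 1.35. The other members followed Cd274 less closely. Cd86 had r = 0.70 and rank 148, Pdcd1 and Havcr2 0.64 each, Pdcd1lg2 0.58, and Cd80 -0.03, which was 0.37 after slide means were removed. Among receptors, Icos and Pdcd1 followed each other at 0.82 (0.80 after slide means were removed), Icos and Ctla4 at 0.80 (0.62), Icos and Lag3 at 0.57 (0.87) and Pdcd1 and Havcr2 at 0.42 (0.81).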

How the data were processed

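The scanner files of 12 one-colour Agilent arrays were the starting point. The authors' intensity values came from Agilent Feature Extraction, version 10.7 in the submitters' processing notes, which removed trends and set dim spots to surrogates, per the file headers. The log2 values of the deposited value table were used only as an alternative. Processed signals were taken to log2, unflagged spots of a probe averaged, and the 75th percentile over non-control probes subtracted. Genes with several kept probes were represented by the brightest on average. Precision is limited by 3 arrays per group. No non-control spot was saturated (0 spots).

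Differences were fitted with limma 3.58.1 in R 4.3.3, as 4 group means over 12 arrays with 8 residual degrees of freedom, and p-values were adjusted by Benjamini-Hochberg over all 26503 genes. Permutation tests were exact and two-sided, with 0.1 the smallest p possible. The members and gene lists were chosen with earlier results of these data known. Named genes are the members, Birc5, up to 4 genes of smallest p per list and comparison, genes within 500 kb of Cd274, the 5 most like it over the arrays, and defining markers. XIST was added after its values were seen. Replicate numbers pair the arrays through the slide: all 18 same-number pairs of arrays deviated together (r = 0.28 to 0.74), but within slide 2, after slide means were removed, only 2 of 6 pairs had r over 0.1. The code was tested on simulated data. Sequences come from the files and from RefSeq (GRCm38.p6), and exon and UTR positions on mm9 were not used here. Alternatives covered background, normalization, probe filter, probe choice, slide, replicate block, array assignment and each array left out.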

Additional observations from a re-analysis of the deposited data

How the results depend on the processing

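No comparison had a gene with an adjusted p under 0.05 except in a few settings. In HCC the deletion gave 1 called gene on slide 2 only (XIST) and 2 without both arrays in doubt and with slide in the model (Dntt and Cyp3a41b). In liver it gave 1 on slide 2 only (XIST), and 0 to 1 with each array left out, the 1 arising without survivin-deleted liver replicate 2. The named genes were picked out only for being called, and none is a member. The Cd274 difference with deletion in HCC was 1.99 with the arrays exchanged, with or without slide in the model, and 1.99 from the deposited value table, which carries the exchange. Under the other settings it was 2.37 to 2.74, and 2.32 to 3.31 with each array left out. In liver it was 0.79 to 1.14 with each array left out. The replicate block left the Cd274 differences at 2.68 in HCC and 1.00 in liver and changed no call at an adjusted p, though Cd274 in liver and between the survivin-deleted tissues then had an unadjusted p under 0.05. The sign of Cd274 held in all 27 alternatives in each of the 4 comparisons. With deletion in HCC the signs of the other members held too, except for Cd80 (13 higher, 3 lower) and Ctla4 (15 and 1). Elsewhere signs were less stable. In liver Pdcd1lg2 had 3 higher and 13 lower, Lag3 8 and 9, and Icos 7 and 10. Between wild-type tissues Cd86 had 11 and 5. The fit on only the groups compared gives no value for the difference between tissues. Dim members (Pdcd1lg2, Cd86, Pdcd1, Ctla4, Btla, Havcr2) are limited by signal over background, most of all on wild-type liver replicate 1.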
